A study of Mus musculus with 8 samples.

Results

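The crypt stem cell and Wnt target genes are 10 genes that were chosen by name for their known roles at the crypt base: Lgr5, Olfm4, Ascl2, Smoc2, Axin2, Rnf43, Znrf3, Tnfrsf19, Slc12a2 and Cd44. They were matched by Ensembl gene ID in a table of 55414 genes, and all 10 were found. Their RNA was measured by bulk sequencing of Paneth cells, which were sorted by FACS from the small intestine of C57BL/6J mice. There were 4 libraries from mice on Milli-Q (ultrapure) water and 4 from mice on water with 25 mM ZnSO4, in both groups for 7 days. The mice carried no engineered allele by the labels, which give neither age nor sex. The study's methods describe sorting from single mice, but the labels do not tie a library to an animal, so p-values measure the spread between libraries.

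Wnt ligands bind Frizzled and LRP receptors at the cell surface and keep β-catenin from being degraded, and β-catenin then switches on target genes together with TCF/LEF factors. In the crypt this signal maintains the stem cells, which lie between the Paneth cells, and it is also needed for Paneth cell maturation. R-spondins strengthen the signal through LGR receptors by removing the ubiquitin ligases RNF43 and ZNRF3, which otherwise take Frizzled receptors off the membrane. Lgr5, Olfm4, Ascl2 and Smoc2 are widely used as stem cell markers, and in a bulk library of sorted Paneth cells the cells that gave their reads cannot be told apart.

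Library totals ran from 20760764 to 24117111 counts. The sorted cell type showed in its defining markers: 10 Paneth cell genes summed to between 353700 and 729600 CPM (counts per 1000000, scaled by the TMM method to make libraries comparable). In both groups this sum was highest in replicate 1 and lowest in replicate 4. Of 9 leukocyte markers 3 were at 0 in every library (Cd3e, Cd3g and Cd8a) and their sum reached at most 2.10 CPM, and of 8 stromal markers 5 were at 0 (Col1a1, Col1a2, Pdgfra, Dcn and Acta2) with a sum of at most 1.31 CPM. Markers of other epithelial cells had more reads. Their sums reached 14770 CPM for goblet cells, 431 CPM for enterocytes, 142 CPM for tuft cells and 107 CPM for enteroendocrine cells. At these depths a gene at 0 could lie at up to 0.115 to 0.188 CPM (3 counts), a limit for counting error alone.

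All 10 genes were detected in every library, with 206 counts (Tnfrsf19 in zinc replicate 4) to 143606 counts (Olfm4 in water replicate 4). Levels between genes were compared as TPM, here counts per kilobase of merged exons scaled so that each library has the same sum, averaged over the 8 libraries. Olfm4, which encodes the secreted glycoprotein olfactomedin 4, stood far above the others at 1356 ± 483 TPM (SD, n = 8) and above 99.7% of the tested genes. Slc12a2, the sodium-potassium-chloride cotransporter NKCC1, followed at 40.0 ± 12.5 TPM, and then the matrix protein gene Smoc2 at 18.4 ± 2.73 TPM (SD, n = 8 each). Ascl2 had 13.1 ± 2.93 TPM, Axin2 9.35 ± 3.23, Lgr5 7.52 ± 2.47, Rnf43 7.37 ± 2.31 and Cd44 5.63 ± 2.23 TPM (SD, n = 8 each). Znrf3 and Tnfrsf19 were lowest at 2.06 ± 0.503 and 2.05 ± 0.669 TPM (SD, n = 8 each), which was near the middle of all tested genes (above 51.3% of them).

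The order was the same from library to library for most neighbours. Olfm4 was above Slc12a2, Slc12a2 above Smoc2, Smoc2 above Ascl2, Ascl2 above Axin2, Axin2 above Lgr5, and Cd44 above Znrf3 in 8 of 8 libraries. Lgr5 was above Rnf43 in 4 of 8 and Znrf3 above Tnfrsf19 in 4 of 8, so neither pair was ordered beyond its spread, and Rnf43 was above Cd44 in 7 of 8. The levels and part of the order depended on the gene length. With the length of the longest transcript in place of all merged exons Lgr5 averaged 15.2 TPM, Smoc2 36.4, Slc12a2 58.9 and Rnf43 10.6 TPM, while the other 6 genes moved by less than their SD. Lgr5 then lay above Axin2 in all libraries (Axin2 above Lgr5 in 0 of 8) and above Rnf43 in 8 of 8, and Ascl2 lay above Axin2 in 6 of 8.

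**Figure D1:**
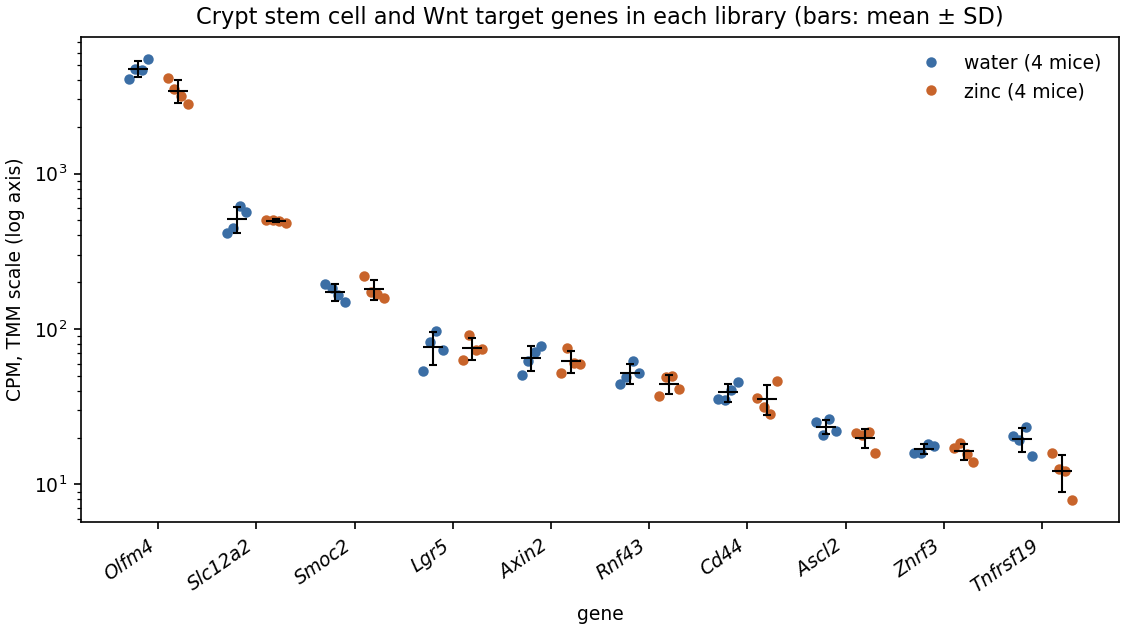
CPM on the TMM scale (log axis) of the 10 genes, with 1 point for each of 4 water and 4 zinc libraries and black bars for the mean ± SD of each group. Olfm4 lies between 2799 and 5484 CPM, and the other genes lie between 7.99 and 619.7 CPM. Where the legend writes mice, it counts libraries.

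The design asked what oral zinc changed in these cells. None of the 10 genes passed the threshold (edgeR quasi-likelihood test, Benjamini-Hochberg adjusted p below 0.05), while 0.0834% of the 11988 tested genes did. At an unadjusted p below 0.05 the test picked out 2 of the 10, Tnfrsf19 and Olfm4, both lower with zinc, against 4.65% of all tested genes, and DESeq2 and limma-voom also called 0 after adjustment. The log2 fold change was below 0 in 9 of the 10 genes and in 48.1% of all tested genes. The median was -0.11 over the 10 genes and 0.01 over all tested genes. The 10 values share the same libraries and scaling and are not independent. The groups did not overlap in 0 of the 10 genes on the TMM scale, against 2.84% of all tested genes.

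**Figure D2:**
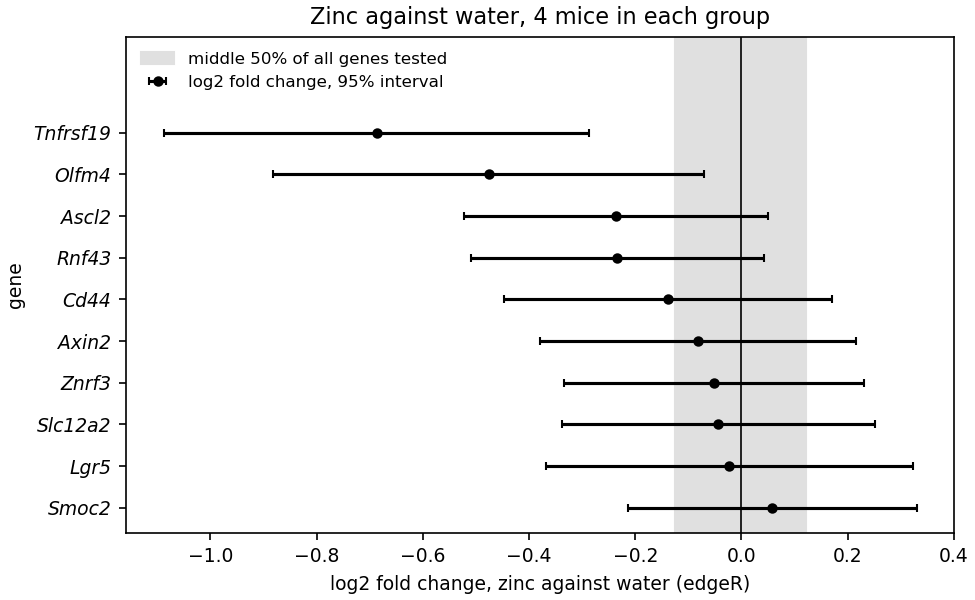
Log2 fold change of zinc against water for the 10 genes (points) with 95% intervals from the edgeR fit (bars). The grey band holds the middle 50% of all 11988 tested genes, from -0.12 to 0.12. The intervals of Tnfrsf19 and Olfm4 lie below 0, and the other 8 include 0. Where the title writes mice, it counts libraries.

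Among the genes for membrane proteins, the largest difference was in Tnfrsf19 (ENSMUSG00000060548, GRCm39 chromosome 14, 61201283 to 61284366, minus strand, 18 merged exons). It encodes TROY, a receptor of the TNF receptor superfamily and a Wnt target in crypt stem cells. It stood at 20.6, 19.3, 23.3 and 15.2 CPM in water replicates 1 to 4 and at 16.0, 12.6, 12.2 and 7.99 CPM in zinc replicates 1 to 4. Of the zinc libraries 3 lay below every water library, and only water replicate 4 lay below the highest zinc library. The mean was 19.6 ± 3.40 CPM for water and 12.2 ± 3.28 CPM for zinc (n = 4 each, SD). The log2 fold change was -0.69 (SE 0.19, 95% interval -1.09 to -0.29, edgeR unadjusted p = 0.00221). After adjustment over all genes it missed the threshold (edgeR adjusted p = 0.523). In bulk samples fewer cells that express a gene and less RNA per cell cannot be told apart.

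The call for Tnfrsf19 depended on the processing. Without a low-count filter it passed the threshold (edgeR adjusted p = 0.00808, log2 fold change -0.68). With the filter and 1 library left out it missed the threshold in all 8 fits, with an edgeR adjusted p from 0.208 to 1.0. With CPM on library totals as the only scaling, the 4 zinc libraries (9.78 to 12.8 CPM) lay below the 4 water libraries (15.8 to 24.8 CPM). On that scale the groups did not overlap in 1 of the 10 genes and in 1.01% of all tested genes, while the test missed the threshold (edgeR adjusted p = 1.0). Annotated genes on the opposite strand overlap 14.9% of the merged exon length of Tnfrsf19, and the sources used here do not give the strand setting of the counting. The overlapping gene that has its own entry in the table had 0 counts in every library.

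The 250 bases before the annotated starts of Tnfrsf19 and Olfm4, the genes with the largest differences, were searched on both strands for CTTTGAT, a core sequence bound by TCF/LEF factors (ATCAAAG on the opposite strand). The sequences are RefSeq promoters on GRCm38.p6, a different build from that of the gene positions, printed 5′ to 3′ on the strand of the gene, with a match in capitals.
Tnfrsf19, farther upstream start, chr14:61046856-61047105, minus strand: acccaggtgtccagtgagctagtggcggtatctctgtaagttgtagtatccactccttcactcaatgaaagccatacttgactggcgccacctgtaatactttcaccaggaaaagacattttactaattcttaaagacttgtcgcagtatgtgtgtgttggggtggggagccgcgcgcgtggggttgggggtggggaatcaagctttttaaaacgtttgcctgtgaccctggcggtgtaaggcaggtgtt
Tnfrsf19, farther downstream start, chr14:61037988-61038237, minus strand: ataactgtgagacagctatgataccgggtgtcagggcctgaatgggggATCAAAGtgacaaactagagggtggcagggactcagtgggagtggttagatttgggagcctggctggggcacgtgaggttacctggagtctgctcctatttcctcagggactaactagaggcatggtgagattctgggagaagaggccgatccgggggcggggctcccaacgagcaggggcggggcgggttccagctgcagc
Olfm4, chr14:80000052-80000301, plus strand: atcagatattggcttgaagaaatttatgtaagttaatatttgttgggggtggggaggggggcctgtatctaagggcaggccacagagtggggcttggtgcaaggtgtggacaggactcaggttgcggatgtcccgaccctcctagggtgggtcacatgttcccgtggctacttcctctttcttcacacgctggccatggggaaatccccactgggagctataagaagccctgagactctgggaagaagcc

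Only the farther downstream start of Tnfrsf19 held a match. Promoters were found for 6 of the 10 genes (Cd44, Ascl2, Rnf43, Axin2, Tnfrsf19 and Olfm4), with 8 starts in all, of which this was the 1 with a match. Of 32851 mouse promoters of this length 3.21% held one. These letters describe the window only, and binding was not measured.

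Lgr5 (ENSMUSG00000020140, GRCm39 chromosome 10, 115286216 to 115423685, minus strand, 17 merged exons) encodes the R-spondin receptor that marks crypt base stem cells. It had 53.4, 82.5, 97.2 and 73.7 CPM in water replicates 1 to 4 and 63.0, 91.7, 73.2 and 74.2 CPM in zinc replicates 1 to 4. The zinc values lay inside the water range, and replicate 1 was lowest in both groups. The means were 76.7 ± 18.3 and 75.5 ± 11.9 CPM (SD, n = 4 each). The log2 fold change was -0.02 (adjusted p = 0.998 by edgeR, SE 0.16), and its 95% interval of -0.37 to 0.32 leaves room for zinc-to-water ratios from 0.775 to 1.25.

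Cd44 (ENSMUSG00000005087, GRCm39 chromosome 2, 102641486 to 102732010, minus strand, 19 merged exons) encodes a hyaluronan receptor that is a Wnt target in crypts. It stood at 35.3, 35.2, 40.6 and 45.9 CPM in the water libraries and at 35.9, 31.6, 28.6 and 46.5 CPM in the zinc libraries. Zinc replicates 2 and 3 were below all water libraries and zinc replicate 4 was above them. The log2 fold change was -0.14 (adjusted p = 0.998 by edgeR, SE 0.15).

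Slc12a2 (ENSMUSG00000024597, GRCm39 chromosome 18, 58011164 to 58080812, plus strand, 30 merged exons) brings chloride into crypt cells for secretion. Its values were 415, 446, 619.7 and 566 CPM for water and 501, 506, 496 and 482 CPM for zinc. The zinc libraries lay together within the wider water range. The means were 511.5 ± 97.1 and 496 ± 10.4 CPM (n = 4 each, SD) and the log2 fold change was -0.04 (adjusted p = 0.998 by edgeR, SE 0.14). Whether the spread differed between the groups was not tested.

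Of the genes for secreted proteins, Olfm4 (ENSMUSG00000022026, GRCm39 chromosome 14, 80221521 to 80260579, plus strand, 8 merged exons) carried most of the reads of the 10 genes. It stood at 4082, 4703, 4667 and 5484 CPM in water replicates 1 to 4 and at 4150.0, 3490.0, 3177 and 2799 CPM in zinc replicates 1 to 4. On the TMM scale 3 of the zinc libraries lay below all water libraries, and zinc replicate 1 lay just above water replicate 1. The mean was 4734 ± 575 CPM for water and 3404 ± 572 CPM for zinc (n = 4 each, SD). The log2 fold change was -0.48 (SE 0.19, 95% interval -0.88 to -0.07, edgeR unadjusted p = 0.0243), and it missed the threshold after adjustment (edgeR adjusted p = 0.998). The adjusted p depended on the processing, and the lowest of any setting was 0.113, by DESeq2. Olfm4 missed the threshold in every setting. With library totals as the only scaling, its 4 zinc libraries (3213 to 3481 CPM) lay within the range of the water libraries (3115 to 6648 CPM). The log2 fold change was then -0.54. Each library had at least 65267 counts of Olfm4, a counting error of at most 0.391%, far below the spread between libraries.

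Without Olfm4 the sum of the other 9 genes was 978 ± 119 CPM for water and 943 ± 36.0 CPM for zinc (n = 4 each, SD). With Olfm4 the sums were 5712 ± 643 and 4346 ± 601 CPM on the TMM scale (SD, n = 4 each). With library totals as the only scaling they were 5883 ± 1692 and 4314 ± 254 CPM (SD, n = 4 each). On that scale the zinc libraries (3959 to 4528 CPM) lay within the range of the water libraries (3768 to 7883 CPM). These sums are given as a description.

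Smoc2 (ENSMUSG00000023886, GRCm39 chromosome 17, 14499735 to 14625074, plus strand, 16 merged exons) encodes a calcium-binding matrix protein. It had 195, 183, 166 and 148 CPM for water and 220.3, 174, 169 and 158 CPM for zinc. It was the 1 gene of the 10 with a log2 fold change above 0, at 0.06 (adjusted p = 0.998 by edgeR, SE 0.13). On the TMM scale replicate 1 was highest and replicate 4 lowest in both groups, as for the summed Paneth cell markers on that scale. With library totals as the only scaling this order was lost. Smoc2 was then lowest in replicate 1 of both groups, at 149 CPM for water and 170.5 CPM for zinc. The other genes of the 10 were also lowest there, except Tnfrsf19, whose lowest zinc library was replicate 4 (9.78 CPM).

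The transcription factor of the 10 genes is Ascl2 (ENSMUSG00000009248, GRCm39 chromosome 7, 142520564 to 142523006, minus strand, 3 merged exons), a Wnt target that controls stem cell identity. It had 25.1, 20.9, 26.3 and 22.0 CPM for water and 21.6, 20.8, 21.8 and 15.9 CPM for zinc. Zinc replicate 4 was lowest, zinc replicate 2 lay just below the lowest water library, and the other zinc libraries lay within the water range. The log2 fold change was -0.24 (SE 0.14, 95% interval -0.52 to 0.05, edgeR adjusted p = 0.998).

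The negative feedback genes of the pathway showed no difference beyond the spread between libraries. Axin2 (ENSMUSG00000000142, GRCm39 chromosome 11, 108811169 to 108841609, plus strand, 13 merged exons) encodes a scaffold of the complex that degrades β-catenin and is a general readout of Wnt signalling. It had 51.0, 61.8, 71.5 and 77.9 CPM for water and 52.0, 75.7, 60.5 and 59.7 CPM for zinc. The zinc values lay inside the water range, with a log2 fold change of -0.08 (SE 0.14, 95% interval -0.38 to 0.22, edgeR adjusted p = 0.998).

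Rnf43 (ENSMUSG00000034177, GRCm39 chromosome 11, 87553548 to 87626377, plus strand, 11 merged exons) and Znrf3 (ENSMUSG00000041961, GRCm39 chromosome 11, 5226324 to 5394939, minus strand, 10 merged exons) encode the ubiquitin ligases that remove Frizzled receptors. Rnf43 had 44.0, 49.3, 62.5 and 52.0 CPM for water and 36.9, 48.9, 49.5 and 41.4 CPM for zinc. Zinc replicates 1 and 4 were below all water libraries, and the log2 fold change was -0.23 (SE 0.13, 95% interval -0.51 to 0.04, edgeR adjusted p = 0.998). Znrf3 had 15.8, 16.0, 18.3 and 17.6 CPM for water and 17.0, 18.6, 15.8 and 14.0 CPM for zinc. Its zinc libraries reached both above and below the water libraries, and the log2 fold change was -0.05 (SE 0.13, 95% interval -0.33 to 0.23, edgeR adjusted p = 0.998).

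The libraries differed among themselves across the 10 genes. On the TMM scale water replicate 3 was the highest library for 5 of them (Lgr5, Ascl2, Rnf43, Tnfrsf19 and Slc12a2), and zinc replicate 4 was the lowest for 4 (Olfm4, Ascl2, Znrf3 and Tnfrsf19). Water replicate 1 was the lowest for Lgr5, Axin2 and Slc12a2. With library totals as the only scaling zinc replicate 4 was the lowest only for Tnfrsf19. Olfm4 (3115 CPM) and Znrf3 (12.1 CPM) were then lowest in water replicate 1, and Ascl2 (16.7 CPM) in zinc replicate 1. Over the 8 libraries of both groups, on the TMM scale, Znrf3 varied least, with a coefficient of variation of 9.19%, and Tnfrsf19 most, with 31.5%. These values include any difference between the group means. Within water Znrf3 varied least on that scale (7.18%) and Lgr5 most (23.9%), with Tnfrsf19 at 17.3%. Within zinc Slc12a2 varied least (2.10%) and Tnfrsf19 most (26.8%). The ranking depended on the scale. By TPM Smoc2 (18.4 ± 2.73) varied less for its level than Znrf3 (2.06 ± 0.503). Cd44 (5.63 ± 2.23 TPM) varied more for its level than Tnfrsf19 (2.05 ± 0.669 TPM, SD, n = 8 each). At 206 counts the counting error of Tnfrsf19 alone was 6.97%.

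Ratios within a library do not depend on the scaling, so each gene was also divided by Lgr5, a choice made after the values had been seen. Olfm4 counts were 76.5, 57.0, 48.0 and 74.4 times those of Lgr5 in water replicates 1 to 4, and 65.9, 38.0, 43.4 and 37.7 times in zinc replicates 1 to 4. Tnfrsf19 had 0.387, 0.234, 0.240 and 0.206 counts per Lgr5 count with water and 0.254, 0.138, 0.167 and 0.108 with zinc. In both ratios 3 zinc libraries lay below all water libraries and zinc replicate 1 lay among them. The ratio of Axin2 to Lgr5 ran from 0.735 to 1.06 with water and from 0.805 to 0.827 with zinc, so the zinc libraries lay within the water range.

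**Figure D3:**
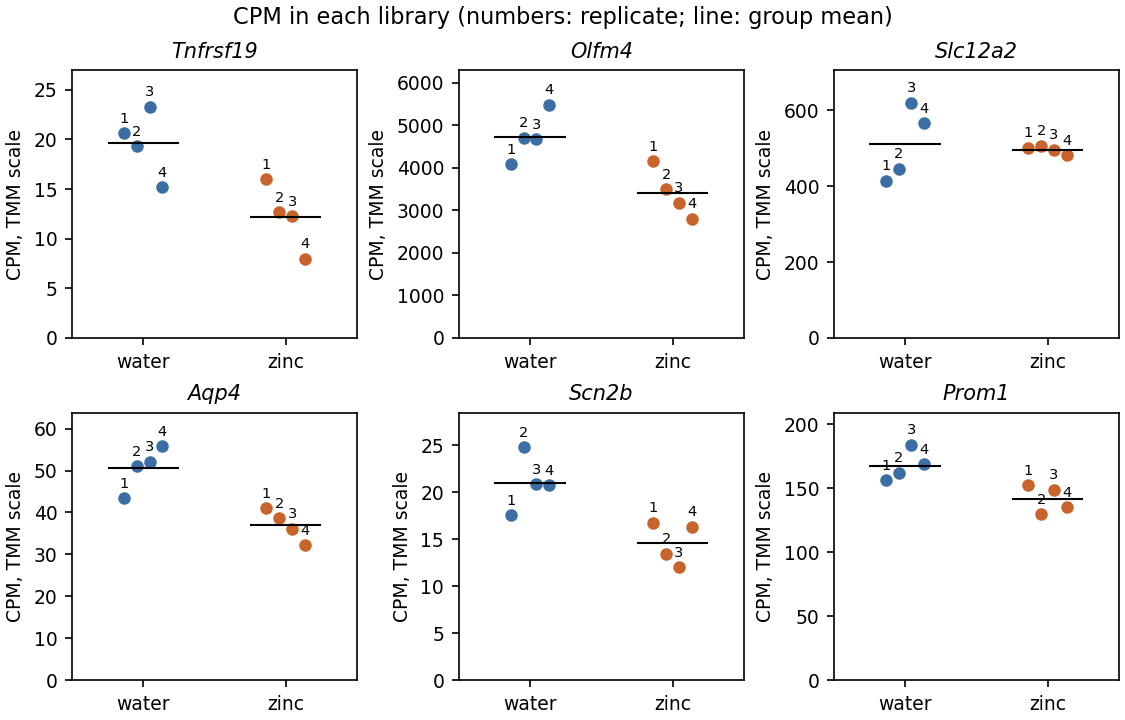
CPM on the TMM scale of 6 genes in each library, with the replicate number above each point and a line at the group mean. The upper row shows Tnfrsf19, Olfm4 and Slc12a2, and the lower row shows Aqp4, Scn2b and Prom1, whose 4 zinc libraries lie below the 4 water libraries on this scale.

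A list of 18 further genes linked to crypt stem cells was read from the same fit, and all 18 were tested. Of these 0 passed the threshold by edgeR, DESeq2 or limma-voom, while 11 had a log2 fold change below 0 and 7 above, with a median of -0.08. At an unadjusted p below 0.05 there were 4 lower and 0 higher genes, against 4.65% of all tested genes in either direction. The groups did not overlap in 3 of the 18, all lower with zinc, against 2.84% of all tested genes. With library totals as the only scaling none of these 3 kept the groups apart.

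The smallest p of that list belonged to Aqp4, which encodes a water channel. It fell short of the threshold, with 43.3, 51.1, 52.1 and 55.8 CPM in water replicates 1 to 4 and 41.0, 38.7, 36.1 and 32.2 CPM in zinc replicates 1 to 4 (log2 fold change -0.45, SE 0.12, edgeR adjusted p = 0.402). The other 3 genes of those 4, Scn2b, Prom1 and Igfbp4, were singled out once their values were known. Scn2b encodes a sodium channel subunit, Prom1 the membrane protein prominin 1 and Igfbp4 a binding protein of insulin-like growth factors. Scn2b had 17.6, 24.8, 20.9 and 20.8 CPM for water and 16.7, 13.5, 12.0 and 16.3 CPM for zinc (log2 fold change -0.52, SE 0.15, edgeR adjusted p = 0.527). Prom1 had 156, 162, 184 and 169 CPM for water and 152, 129.6, 149 and 135 CPM for zinc (log2 fold change -0.24, SE 0.11, edgeR adjusted p = 0.998). Igfbp4 overlapped between the groups, with 51.5, 48.4, 68.9 and 67.9 CPM for water and 60.0, 40.2, 31.5 and 42.7 CPM for zinc (log2 fold change -0.44, SE 0.18, edgeR adjusted p = 0.998). The most abundant gene of the list per length was Hopx, a homeodomain-only protein gene, with 61.4 TPM and a log2 fold change of 0.06 (SE 0.12).

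Proliferation markers, which mark dividing crypt cells, mostly had values above 0. Of 10 tested markers 8 had a log2 fold change above 0 and 2 below, with a median of 0.28. None passed the threshold, and 3 of the 10 had an unadjusted p below 0.05, all higher with zinc, against 4.65% of all tested genes in either direction. Top2a, the DNA topoisomerase of dividing cells, had the smallest p, with 85.2, 118, 93.4 and 119 CPM for water and 118, 147, 139.5 and 157 CPM for zinc (log2 fold change 0.43, SE 0.13, edgeR adjusted p = 0.660). Mcm6, a helicase subunit gene, was the most abundant per length and had a log2 fold change of -0.03 (SE 0.12). The 10 markers summed to 363 to 506 CPM for water and 461 to 579 CPM for zinc. Their part in the values of the stem cell genes was not tested.

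**Figure D4:**
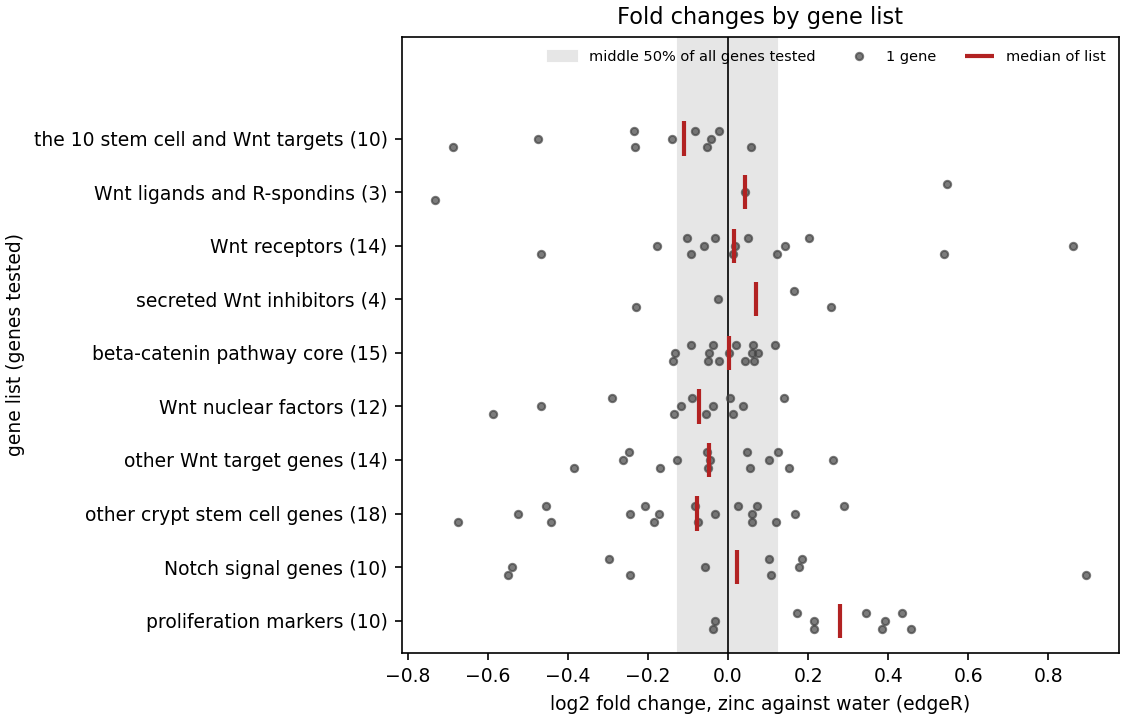
Log2 fold change of zinc against water for every tested gene of 10 lists (points), with the number of tested genes in brackets, the median of each list (red lines) and the middle 50% of all tested genes (grey band). Medians run from -0.11 for the 10 stem cell and Wnt target genes to 0.28 for the proliferation markers.

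The other genes of the Wnt pathway were read in the order of the signal, and none passed the threshold in any of 6 lists by edgeR, DESeq2 or limma-voom, with 1 gene (Fzd4) at an unadjusted p below 0.05, where 4.65% of all tested genes were. Of 11 ligands and R-spondins only 3 had enough counts to be tested, and 6 were at 0 in every library (Wnt2b, Wnt4, Rspo1, Rspo2, Rspo3 and Rspo4). Wnt3, the Wnt ligand known from Paneth cells, was the most abundant at 43.9 TPM, with 144 ± 40.4 CPM for water and 148 ± 36.2 CPM for zinc (n = 4 each, SD). Its log2 fold change was 0.04 (adjusted p = 0.998 by edgeR, SE 0.20). The smallest p of the ligands belonged to Wnt5a, at 3.18 ± 1.55 and 4.59 ± 0.230 CPM (n = 4 each, SD), where the log2 fold change was 0.55 (adjusted p = 0.998 by edgeR, SE 0.31).

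Of 16 receptors 14 were tested, with 8 above and 6 below 0 and a median of 0.01. The R-spondin receptor Lgr4 was the most abundant at 26.4 TPM, above the 7.52 TPM of Lgr5, both by merged exon length. It had 186 ± 24.6 CPM for water and 214 ± 30.6 CPM for zinc (n = 4 each, SD, log2 fold change 0.20, SE 0.13, edgeR adjusted p = 0.998). With the length of the longest transcript Lgr5 had 15.2 TPM, and the 2 genes were not compared at that length. The third receptor of this family, Lgr6, named after its values had been seen, had at most 1 count in any library. Fzd4, a Frizzled receptor gene, was the 1 receptor with an unadjusted p below 0.05 (log2 fold change 0.54, SE 0.26, edgeR adjusted p = 0.998). Of 11 secreted inhibitors 4 were tested, with 2 above and 2 below 0. Sfrp5, a secreted Frizzled-related protein gene, was the most abundant at 8.12 TPM (log2 fold change -0.02, SE 0.45), and Dkk3 had the smallest p (log2 fold change 0.26, SE 0.22, edgeR adjusted p = 0.998).

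Inside the cell, 15 of 16 core genes of the β-catenin pathway were tested, with 8 above and 7 below 0 and log2 fold changes from -0.14 to 0.12. Ctnnb1, the β-catenin gene, stood at 56.0 TPM and at 471 ± 21.8 CPM for water and 456 ± 27.0 CPM for zinc (n = 4 each, SD, log2 fold change -0.05, SE 0.12, edgeR adjusted p = 0.998). Dvl2, a Dishevelled gene, had the smallest p (log2 fold change -0.14, SE 0.17, edgeR adjusted p = 0.998). Of 13 nuclear factors 12 were tested, with 4 above and 8 below 0 and a median of -0.07. Ctbp1, a corepressor gene, was the most abundant (log2 fold change 0.04, SE 0.10), and Bcl9l, which encodes a β-catenin cofactor, had the smallest p (log2 fold change -0.29, SE 0.15, edgeR adjusted p = 0.998).

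Of 15 other Wnt target genes 14 were tested, with 6 above and 8 below 0 and a median of -0.05. Mmp7, the protease that activates defensins in Paneth cell granules, was the most abundant at 4760.0 TPM, with a log2 fold change of 0.05 (adjusted p = 0.998 by edgeR, SE 0.25). Sp5, a transcription factor gene that Wnt signals switch on, had the smallest p, at 9.37 ± 2.74 CPM for water and 7.15 ± 1.85 CPM for zinc (n = 4 each, SD, log2 fold change -0.38, SE 0.23, edgeR adjusted p = 0.998).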

How the data were processed

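Gene expression was measured in FACS-sorted Paneth cells by bulk RNA-seq with a stranded mRNA kit, in 4 water and 4 zinc libraries. The authors deposited 1 table of raw read counts, in whole numbers, with Ensembl gene IDs. The submitters' processing notes name STAR 2.7.0a, FastQC 0.12.0, DESeq2 and the build mm39. Not given in the sources used here are the counting program, the strand setting and the handling of reads with several hits. Of 55414 gene IDs, 54749 were matched to GENCODE M39 on GRCm39, which gave symbols, positions and lengths.

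The groups were compared with edgeR 4.0.16 under R 4.3.3 (low-count filter with a minimum count of 10, TMM scaling, robust quasi-likelihood F test, treatment as the only term). Adjustment followed Benjamini and Hochberg over 11988 genes, with a threshold of 0.05, and all 10 genes passed the filter. The SE was derived from the fold change and its F value, and 95% intervals use the degrees of freedom of the fit. The fit was tested on simulated counts. Alternatives were RLE factors, library totals, DESeq2 1.42.0, limma-voom (limma 3.58.1), other filters, a replicate block, removal of Defa genes and removal of each library.

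The 10 genes, the lists and the alternatives were chosen with earlier results of these data known. Named beside the 10 genes were, for each pathway list, genes past the threshold or else the one with the smallest p, and the one with the highest mean TPM; for each cell marker list, the one with the highest mean TPM and any past the threshold. Other names are said to be chosen after their values were seen, or are listed by a stated count. The labels give no batch. P-values measure the spread between these libraries.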

Additional observations from a re-analysis of the deposited data

Results flagged for a closer look

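For the 10 genes, their sum and the library totals, the highest and lowest of 4 libraries were checked with Dixon's test (95% level). Of 24 groups of 4 it singled out 0 libraries.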

How the results depend on the processing

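The number of the 10 genes past the threshold was 0 and stayed 0 under RLE factors, library totals, DESeq2, limma-voom, a mean count of at least 50, removal of the Defa genes and removal of each of the 8 libraries. It was 1 (Tnfrsf19) without a low-count filter and 1 (Tnfrsf19) with replicate numbers as a block (edgeR adjusted p = 0.0253, log2 fold change -0.71). The adjusted p of Tnfrsf19 ran from 0.00808 to 1.0 over the 8 settings that kept all libraries. In the 8 Wnt, Notch and stem cell lists 0 genes passed the threshold under any of these settings, while among the cell markers Top2a did with the block, Sis with DESeq2 and without zinc replicate 1, and Reg3g with library totals only. Same-numbered libraries of the 2 groups deviated together with correlations of 0.23, 0.0001, 0.13 and 0.26 for replicates 1 to 4, and the labels do not say that a number marks a shared litter or day, so the numbers were not taken as pairs. In replicate 2 of either group the highest correlation was with another number. The TMM factors rose with the replicate number in both groups. They ran from 0.764 in water and 0.775 in zinc replicate 1 to 1.21 in water and 1.23 in zinc replicate 4. Over all genes the count was 10 (3 higher and 7 lower), and it was 34 (8 and 26) with DESeq2, 66 (11 and 55) without a filter and 32 (6 and 26) with the block. Without single libraries it ran from 1 to 15, with 0 to 5 higher and 1 to 12 lower. It was 1 without water replicate 2, 3 without zinc replicate 2 and 4 without water replicate 3. The cause was not tested.

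When single libraries were left out, the log2 fold change changed sign for 5 of the 10 genes. It ran from -0.16 to 0.11 for Lgr5, from -0.19 to 0.0073 for Axin2, from -0.13 to 0.0561 for Slc12a2, from -0.0547 to 0.12 for Smoc2 and from -0.12 to 0.0108 for Znrf3. Tnfrsf19 ran from -0.84 to -0.53 and Olfm4 from -0.59 to -0.40. The number of genes below 0 was 7 to 9 of 10 in these fits. The summed TPM of the 10 genes moved by less than the spread between libraries with the longest transcript as length. With 4 libraries in each group, the 95% intervals give the range of changes that the data leave for each gene.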

Other observations

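The Notch pathway, which keeps crypt stem cells from becoming secretory cells, was read as a list of 12 genes, of which 10 were tested, with 5 above and 5 below 0 and 0 past the threshold. Atoh1, the factor that sets secretory fate, was the most abundant at 44.1 TPM, with 90.4 ± 9.76 CPM for water and 97.1 ± 15.6 CPM for zinc (n = 4 each, SD, log2 fold change 0.10, SE 0.13). The ligand gene Jag2 had the smallest p, at 1.59 ± 0.708 and 3.00 ± 1.04 CPM (SD, n = 4 each, log2 fold change 0.89, SE 0.36, edgeR adjusted p = 0.998). At an unadjusted p below 0.05 there were 1 higher gene (Jag2) and 1 lower gene, against 4.65% of all tested genes in either direction. The lower gene was Jag1, another ligand gene, named after its values were seen (log2 fold change -0.55, SE 0.23, edgeR adjusted p = 0.998).

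The summed markers of other epithelial cells overlapped between the groups for each cell type. The 6 tuft cell markers summed to 18.8 to 142 CPM for water and 22.2 to 99.2 CPM for zinc, led by Rgs13 at 7.10 TPM. The 8 enteroendocrine markers summed to 42.7 to 107 and 45.0 to 88.0 CPM, led by Sct at 40.2 TPM. The 7 goblet cell markers summed to 8646 to 14770.0 and 10800.0 to 14220.0 CPM, led by Spink4 at 9205 TPM. Spink4 was highest in replicate 1 of both groups, at 9656 CPM for water and 9876 CPM for zinc. Clca1, Zg16 and Fcgbp, named after their values were seen, were instead highest in replicate 4 of both groups. There Clca1 had 238 CPM for water and 124 CPM for zinc, and Zg16 had 82.1 and 172 CPM. For Muc2, Tff3 and Agr2 the number of the highest library differed between the groups. The 10 enterocyte markers summed to 326 to 431 and 362 to 411 CPM, led by Anpep at 65.4 TPM. Defa24 led the 10 Paneth cell markers at 381100.0 TPM, Cd68 led the leukocyte markers at 0.176 TPM and Vim the stromal markers at 0.0892 TPM. By edgeR 0 genes of these lists passed the threshold. The smallest p of the enterocyte markers belonged to Sis, the sucrase-isomaltase gene, and of the Paneth cell markers to Reg3g, an antimicrobial lectin gene, both named after their values were seen. Sis had 1.63, 1.93, 1.69 and 2.86 CPM for water and 2.38, 22.8, 13.0 and 7.80 CPM for zinc, where 3 zinc libraries lay above all water libraries (log2 fold change 2.49, SE 0.65, edgeR adjusted p = 0.852). Reg3g had 1382, 2040.0, 1175 and 914 CPM for water and 837, 425, 758 and 329 CPM for zinc, without overlap of the groups (log2 fold change -1.23, SE 0.34, edgeR adjusted p = 0.794). Sis passed the threshold with DESeq2 and without zinc replicate 1, and Reg3g with library totals as the only scaling. Their part in the values of the stem cell genes was not tested.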
